A study of Mus musculus with 4 samples.

Results

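Hippocampal CA field spots were defined here as spots over tissue with 2000 or more UMIs whose summed level of Fibcd1, Spink8, Neurod6 and Wfs1 lay at or above the 96th percentile of all such spots, pooled over the 4 capture areas. These measured values selected 508 of 12696 spots. UMIs are the unique molecular identifiers that count captured probe molecules, and all levels are UMI counts per 1000000 UMIs (CPM). The members were chosen by the levels of these 4 genes, so those levels are a description and no result. Because the rule used expression, every difference between these spots and the rest of the sections is likewise a description with no test.

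The sections were formalin-fixed, paraffin-embedded mouse brain after tumour inoculation and resection, sampled at day 11. The areas named Vehicle 1+4 and Vehicle 2+3 carry the Vehicle treatment, and the areas named TREAT 1+4 and TREAT 2+3 carry the TREAT treatment. The design text speaks of hydrogel-treated and non-treated conditions, and that these are TREAT and Vehicle is not stated. All animals of both groups had a tumour implanted and removed. For the mice, strain, age and sex are not given in the sources used here, nor are the tumour line and what the hydrogel held. Pairs of probes were hybridised to transcripts, ligated and captured on an array of barcoded spots. The sources state 4 animals, while each area held 2 tissue pieces. Which animal gave which piece is not given, so p-values measure the spread between areas.

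The cornu ammonis (CA) fields are the layers of pyramidal neurons of the hippocampus. CA3 neurons receive mossy fibres from the granule cells of the dentate gyrus and project to CA1, the main output field, with CA2 between them. These glutamatergic neurons are a standard model of synaptic plasticity, which depends on AMPA and NMDA glutamate receptors, calcium entry and calcium-dependent kinases. Fibcd1 marks CA1, Spink8 and Neurod6 mark pyramidal neurons of several fields, and Wfs1 marks CA1 but also neurons of the striatum, amygdala and upper cortical layers. An array spot can hold several cells of different types, and fewer cells of a type and less RNA per cell cannot be told apart.

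The 4 areas held between 3004 and 3349 spots with 2000 or more UMIs, with a median of 7775 to 14992 UMIs per spot. The CA field spots numbered 160 in Vehicle 1+4, 100 in Vehicle 2+3, 122 in TREAT 1+4 and 126 in TREAT 2+3. Their median depth was 6244, 8198, 16354 and 9916 UMIs in the same order, so the Vehicle spots were the shallower ones. The threshold of the score was 701.8 CPM. The lowest member scored 702.4 CPM and the highest spot outside scored 701.7 CPM, against a median of 1022 CPM inside and 32.68 CPM outside. In shallow spots this score rested on few molecules. Members with under 4 UMIs of the 4 genes numbered 44 (27.5%) and 28 (28%) in the Vehicle areas, and 0 and 5 (3.968%) in the TREAT areas.

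CA field spots made up 5.305% of spots in Vehicle 1+4 (Wilson 95% interval 4.56 to 6.163), 3.006% in Vehicle 2+3 (2.478 to 3.642), 3.643% in TREAT 1+4 (3.06 to 4.332) and 4.194% in TREAT 2+3 (3.534 to 4.972). These intervals cover counting error only. The Vehicle areas were the highest and the lowest, and both TREAT areas lay between them. The mean share was 4.156% ± 1.626 (SD, n = 2) in Vehicle and 3.918% ± 0.3896 (SD, n = 2) in TREAT, a difference of -0.237 percentage points with a two-sided exact permutation p of 1. With 2 areas against 2 the smallest p possible is 0.3333. The sign of this difference turned with the 94th or 98th percentile as the threshold, and with a minimum of 5000 UMIs.

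CA field spots lay together in the sections. Of the spots adjacent to a CA field spot, 51.69% were also CA field spots, against 1.969% of the spots adjacent to other spots. In all, 353 of the 508 spots fell into 11 connected groups of 10 or more, and 155 were scattered singly or in smaller clumps. The groups included long curved bands, the longest of 78 spots in the left piece of TREAT 2+3, and others of 62 spots in Vehicle 1+4 and 60 spots in TREAT 1+4. The scattered spots numbered 64, 42, 14 and 35 in Vehicle 1+4, Vehicle 2+3, TREAT 1+4 and TREAT 2+3. The right piece of Vehicle 2+3 held 20 CA field spots and no connected group, and 85% of them had under 4 UMIs of the 4 genes.

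**Figure D1:**
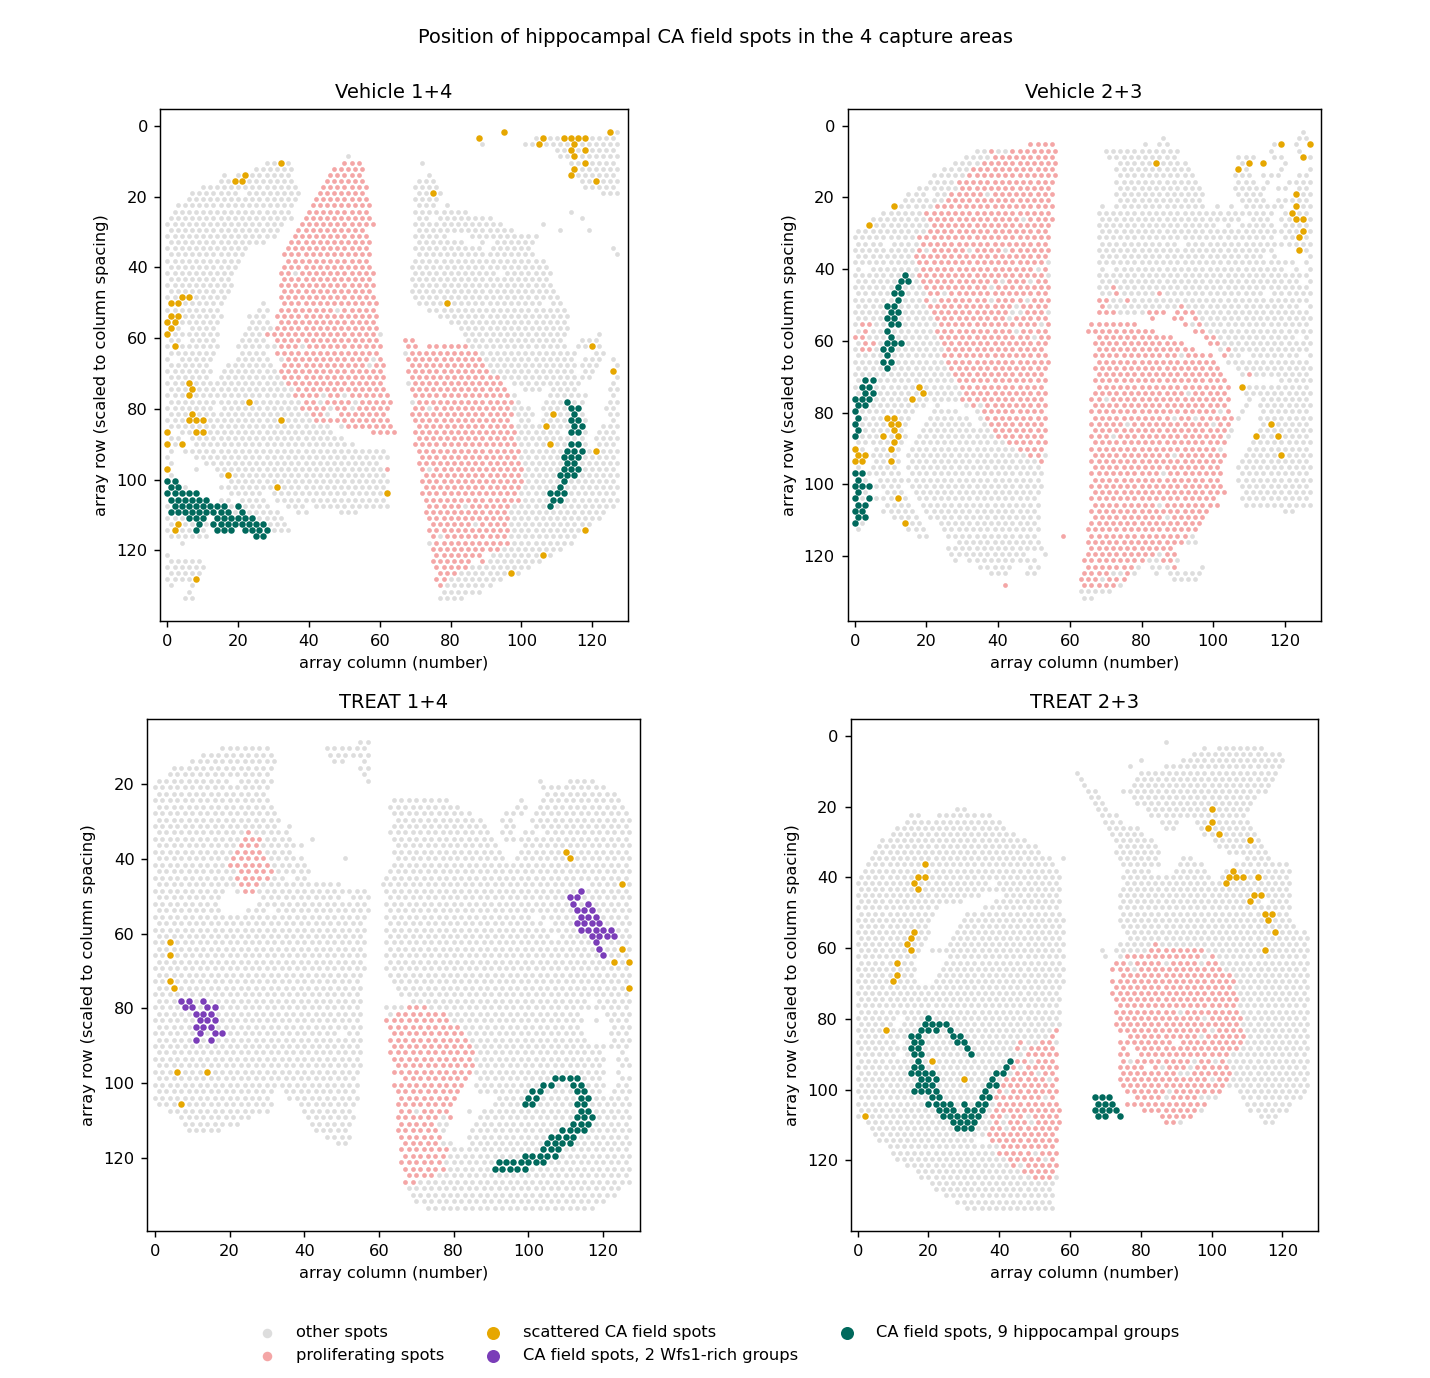
Position of CA field spots in the 4 capture areas, by array column and array row scaled to the column spacing; green spots belong to the 9 groups described as hippocampal, purple spots to the 2 Wfs1-rich groups, yellow spots are scattered, pink spots are proliferating and grey spots are all others. The 305 green spots form bands in all 4 areas, and the 48 purple spots lie only in TREAT 1+4.

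Markers that the rule did not use fitted the label for most of these groups. They were mixed for the group of 62 spots in Vehicle 1+4 and went against the label for 2 groups. In 9 of the 11 groups, 305 spots in all (96, 58, 60 and 91 per area in the order above), Wfs1 gave under 50% of the UMIs of the rule, and the 6 pan-hippocampal pyramidal markers (Hpca and Cnih2 among them) summed to between 1616 and 9305 CPM. The 2 remaining groups, 21 spots in the left piece and 27 spots in the right piece of TREAT 1+4, were rich in Wfs1 at 857.2 and 962.8 CPM. They had little Fibcd1 (18.7 and 8.229 CPM) and Neurod6 (43.64 and 10.97 CPM), and their pan-hippocampal markers summed to 947.6 and 1094 CPM, below all 9 other groups. Their 8 striatum markers summed to 4261 and 4605 CPM, against at most 379 CPM in the 9 groups. These spots are called the Wfs1-rich groups. The 9 others are called the hippocampal groups. The name is least secure for the 62 spots of Vehicle 1+4, whose pan-hippocampal sum of 1616 CPM was the lowest of the 9. Their interneuron markers summed to 2149 CPM, the highest of the 9. Their CA1 markers that the rule did not use summed to 940.7 CPM, against 202.6 and 211.2 CPM in the Wfs1-rich groups.

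**Figure D2:**
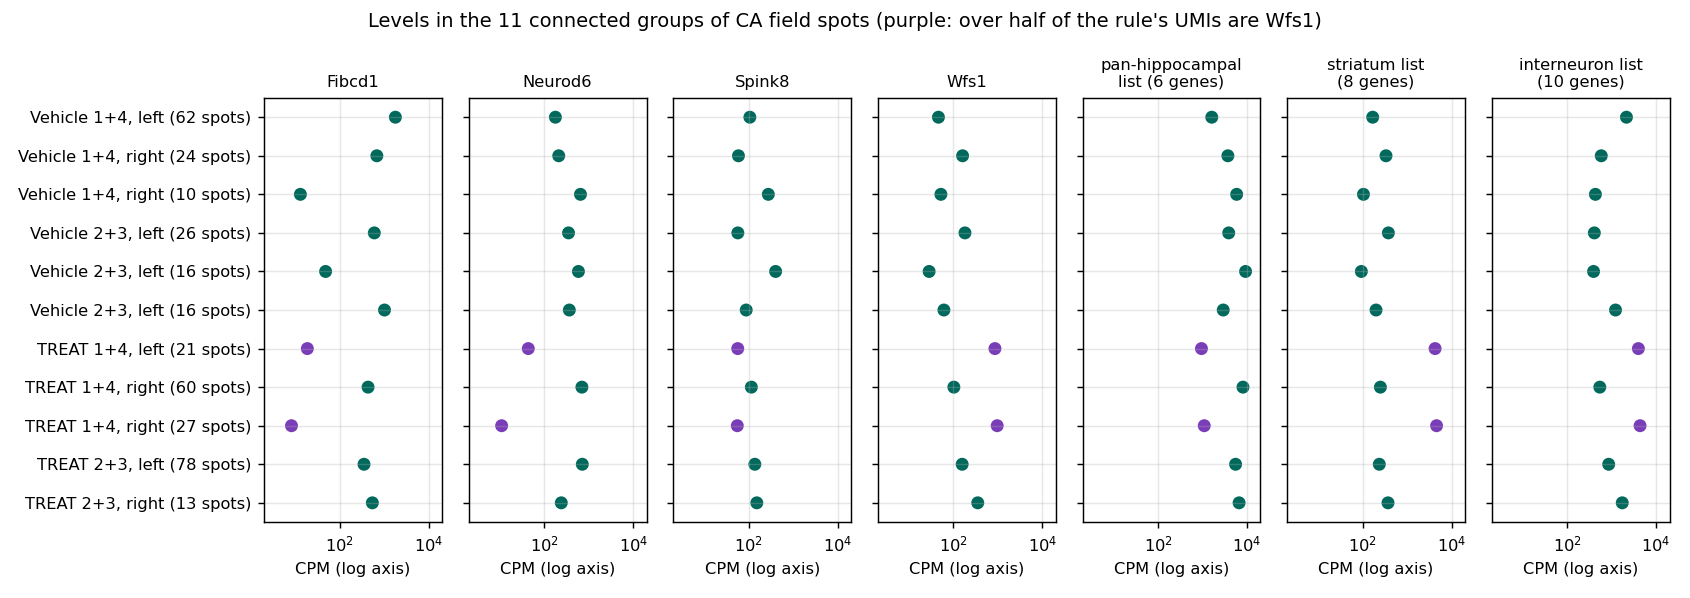
Level in CPM on a log axis of the 4 genes of the rule and of the summed pan-hippocampal, striatum and interneuron lists in each of the 11 connected groups, 1 point a group. The 2 purple groups of TREAT 1+4 stand apart with Wfs1 at 857.2 and 962.8 CPM and a striatum sum of 4261 and 4605 CPM.

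Wfs1 reached 50% or more of the rule's UMIs in 151 of the 508 spots (29.72%). These were 34, 19, 61 and 37 spots in Vehicle 1+4, Vehicle 2+3, TREAT 1+4 and TREAT 2+3. At least 1 UMI of Fibcd1 or Spink8 was found in 389 spots (76.57%). The CA spots therefore held a mixture whose make-up differed between areas, and comparisons between treatments are given for all 508 spots and for the hippocampal groups alone.

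Clustering of the 508 spots by expression gave 7 clusters, numbered 0 to 6 by size. Cluster 0 (107 spots) was led by Ccbe1, Homer3, Smoc2, Tmem114 and Bok, and had the highest sum of the 6 CA3 markers, 443.8 CPM, with 4 of them (Bok, Nectin3, Grik4 and Cdh24) among its 50 leading genes. Cluster 3 (70 spots), led by Arhgap12, Hs6st3, Kcnh7 and Pou3f1, had all 5 CA1 markers that the rule did not use among its leading genes. Cluster 2 (88 spots) was led by Grp, the gastrin-releasing peptide precursor, Dcn and Fxyd6, and had the highest Fibcd1 at 1503 CPM. Its 50 leading genes held 3 deep-layer cortex markers (Fezf2, Rprm and Etv1) and 1 CA1 marker that the rule did not use (Mpped1). They do not carry the hippocampal name for this cluster. Even so, 78 of its 88 spots lie in connected groups, all of them hippocampal groups, since the Wfs1-rich groups lie only in TREAT 1+4. Cluster 2 has 0 spots in TREAT, so comparisons of the hippocampal groups still hold a part seen only in Vehicle.

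Cluster 1 (107 spots) was led by Klk6, Vim, C3, Thbs4, Lcn2 and Gfap, genes of reactive glia among them, with Gfap at 4053 CPM against 551.4 CPM in the other CA spots. Cluster 4 (52 spots) was led by the neuropeptide genes Tac2, Pdyn, Nts and Pmch, and its interneuron markers summed to 4777 CPM. Cluster 5 (42 spots), led by Igfn1, C1ql2 and Kcnc4, had 2 of its 42 spots in connected groups. Cluster 6 (42 spots), led by Adora2a, Tac1 and Drd2, had 7 of the 8 striatum markers among its leading genes and a striatum sum of 7163 CPM. These are descriptions of the leading genes, since the clusters were made from them.

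The clusters were spread unevenly over the areas. Cluster 0 held 26, 37, 21 and 23 spots in Vehicle 1+4, Vehicle 2+3, TREAT 1+4 and TREAT 2+3, and cluster 1 held 19, 26, 14 and 48. Cluster 2 held 68 and 20 spots in the Vehicle areas and 0 in both TREAT areas, and cluster 3 held 18, 0, 25 and 27. Cluster 4 held 1, 14, 37 and 0 spots, cluster 5 held 28, 3, 3 and 8, and cluster 6 held 0 and 0 in the Vehicle areas and 22 and 20 in the TREAT areas.

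Outside the rule's own genes, transcripts of pyramidal neurons set these spots apart from the rest of the sections. Of 4578 genes with a mean of 50 CPM or more in CA spots, 841 were at least 2-fold above all other spots, and 824 of these were above in each of the 4 areas. Hpca, encoding the neuronal calcium sensor hippocalcin, reached 2108, 5468, 4974 and 4111 CPM in Vehicle 1+4, Vehicle 2+3, TREAT 1+4 and TREAT 2+3, against 259.5, 235.8, 510.6 and 334.6 CPM in the other spots of those areas. The lowest CA value was that of Vehicle 1+4, and even it lay 8.125-fold above the other spots. The mean ratio was 12.43 over all other spots, 4.738 over upper-layer cortex spots and 4.007 over dentate gyrus spots.

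Among the 20 genes with the largest ratios, which ran down to 6.734, several encode receptors. Gabra5, the GABA-A receptor subunit of tonic inhibition in CA1, stood at 218.8, 240.1, 304 and 381.9 CPM against 24.55, 15.04, 41.18 and 37.27 CPM, a ratio of 9.699. Npy2r, the neuropeptide Y receptor of presynaptic terminals, had a ratio of 8.296, Sstr4, a somatostatin receptor, 6.978, and Epha6, a receptor for ephrins, 7.901. Each of the 20 genes was higher in CA spots than in other spots in every area.

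Calcium handling and transcription were also represented. Cabp7, a calcium-binding protein, had a ratio of 9.864, Cpne6, a calcium-dependent copine, 7.808, and Dgkg, a diacylglycerol kinase, 6.734. Shisa6, an auxiliary protein of AMPA receptors, had 7.055, and the channel gene Trpc4 had 7.054. Nr4a3 (7.696) and Pou3f1 (7.049) encode transcription factors, and Rgs14 (8.007) encodes a signalling scaffold best known from CA2. The others were Gm2115 (13.24), Thsd4 (11.82), Crym (10.12), Wipf3 (9.03), Mdga1 (8.124), Ccbe1 (6.877) and Tafa1 (6.737).

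**Figure D3:**
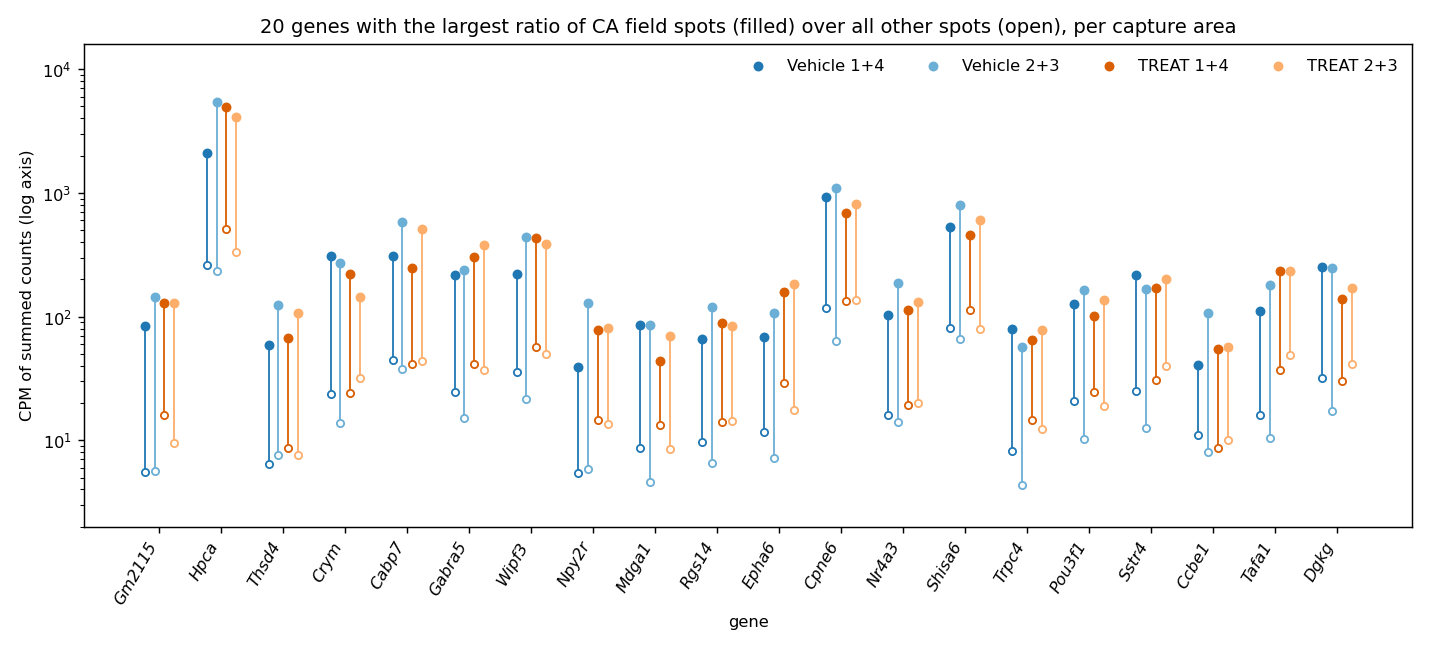
Level in CPM on a log axis of the 20 genes with the largest ratio of CA field spots (filled) over all other spots (open), 1 line per capture area. Every filled point lies above the open point of its area, and the ratio of the means falls from 13.24 for Gm2115 to 6.734 for Dgkg.

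All 20 genes were at least 2-fold above upper-layer cortex spots as well, but 12 of them were at least 2-fold above dentate gyrus spots. Pou3f1 separated CA spots from the dentate gyrus most within the 20, with a ratio of 17.99. Sv2b, a synaptic vesicle protein, stood 12.68-fold above dentate spots. Gabra5 (1.527), Shisa6 (1.292) and Cpne6 (1.365) were nearer to the dentate level, and Ccbe1 was lower than there (0.734). Prox1, the transcription factor of dentate granule cells, was at 0.02923 of the dentate level, but it was also used to choose the dentate spots.

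Lists of synaptic genes followed the same direction. Of the genes with a mean of 10 CPM or more, 1145 of 10134 were at least 2-fold above other spots and 1286 were at or below 0.5-fold. Against this, 12 of 14 calcium signalling and plasticity genes, 14 of 17 presynaptic release genes and 9 of 12 postsynaptic scaffold genes were at least 2-fold higher. The same held for 6 of 10 AMPA receptor genes, 3 of 6 NMDA receptor subunits, 5 of 9 GABA-A subunits and 11 of 19 voltage-gated sodium and potassium channels.

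Single members of these lists reached higher ratios. Itpka, a kinase of dendritic spines, stood at a ratio of 4.58, the calcineurin subunit Ppp3ca at 4.083 and dendrin, Ddn, at 4.515. Of the glutamate receptors and their partners, Cacng8 had 5.986, Gria1 5.596, Cnih2 5.314 and Grin2a 4.838. Kcnip2 (5.255) and Scn3b (5.194) led the channels. Gabrd, the delta subunit typical of dentate granule cells, was the GABA-A member at or below 0.5-fold, with 0.4536.

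Genes of hormone response and neuronal activity differed in direction. Nr3c2, the mineralocorticoid receptor that is abundant in the hippocampus, was 6.285-fold above other spots with 74.96, 100.4, 111 and 115.7 CPM in the 4 areas. Nr3c1, the glucocorticoid receptor, was at 0.7506 of the other spots. Bdnf, the neurotrophin released by active neurons, had a ratio of 3.889. Of the immediate early genes, Egr4 (3.514) and Arc (2.442) were higher and Fos (0.3957) was lower.

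Most genes of immune response were lower in CA spots than in the rest of the sections, which includes the proliferating tissue. All 12 antigen presentation genes with 10 CPM or more were at or below 0.5-fold, with a median ratio of 0.0905. The same held for 11 of 12 interferon-stimulated genes and 8 of 12 reactive astrocyte genes. Of the reactive astrocyte genes, Gfap (1.556) and S1pr3 (1.282) had mean ratios above 1, though not in every area. Complement genes were less low, with 2 of 7 at or below 0.5-fold and a median ratio of 0.5156. Proliferation genes summed to 44.43 CPM in CA spots and 999 CPM elsewhere. Macrophage and T and NK cell markers were near 0, with sums of 8.957 and 11.54 CPM in CA spots.

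TREAT was then compared with Vehicle within the CA field spots, summing raw counts per area (edgeR's quasi-likelihood test, Benjamini-Hochberg adjustment over 11010 genes). Of these genes 3 were higher in TREAT, 0.0272% of those tested, and 0 were lower. At an unadjusted p under 0.05 there were 1569 genes. The 3 genes all belong to the striatum list. The 2 described here are Ppp1r1b and Adora2a.

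Ppp1r1b, which encodes the dopamine-regulated phosphatase inhibitor DARPP-32 (GRCm38.p6 chromosome 11, 98348406 to 98357796), measured 97.36 and 75.79 CPM in Vehicle and 735.1 and 450 CPM in TREAT. The groups did not overlap, and the log2 fold change was 2.70 ± 0.27 (SE; edgeR adjusted p = 0.04197). Genes were picked for description among those whose groups did not overlap, so for the leading genes of each comparison that separation is no result. Adora2a, the adenosine receptor of indirect-pathway striatal neurons (chromosome 10, 75316877 to 75334792), measured 0.8616 and 2.739 CPM in Vehicle and 54.25 and 41.15 CPM in TREAT, a log2 fold change of 4.62 ± 0.46 (SE; edgeR adjusted p = 0.04197). The Vehicle values rest on 1 and 3 UMIs, so Adora2a passed the filter on low counts through the TREAT areas alone. Its p-value is therefore a description. Penk, the enkephalin precursor, had 46.53, 65.74, 942 and 441 CPM and missed the threshold (log2 3.54, edgeR adjusted p = 0.05972).

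The striatum list was high in TREAT outside the hippocampal groups. The 8 markers summed to 230.9 and 205.4 CPM in Vehicle and 2053 and 1163 CPM in TREAT over all CA spots. In the hippocampal groups they summed to 192.7, 209.5, 250.7 and 248.1 CPM, and in the scattered spots to 297.4, 197.7, 6326 and 4360 CPM. TREAT 2+3 has no spot of the Wfs1-rich groups, so there the high level lies in scattered spots, while TREAT 1+4 has both. In the hippocampal groups Adora2a measured 1.357, 2.794, 1.37 and 7.442 CPM, and the treatments overlapped. Ppp1r1b measured 62.42, 65.65, 96.57 and 102.5 CPM there, with both TREAT areas above both Vehicle areas (log2 0.60, edgeR adjusted p = 0.2563). In the CA spots outside the hippocampal groups Adora2a measured 0, 2.637, 138.4 and 158.9 CPM and Ppp1r1b 158.1, 94.92, 1751 and 1664 CPM. In the hippocampal groups alone, 0 of 10102 genes passed (0%, with 1570 at an unadjusted p under 0.05).

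The count of 3 moved with the choice of areas. Without Vehicle 1+4, Vehicle 2+3 or TREAT 2+3 it was 22, 16 or 13, and without TREAT 1+4 it was 3, with Adora2a no longer called (adjusted p = 0.0888). With the label numbers as a block 147 genes passed, 36 higher and 111 lower.

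**Figure D4:**
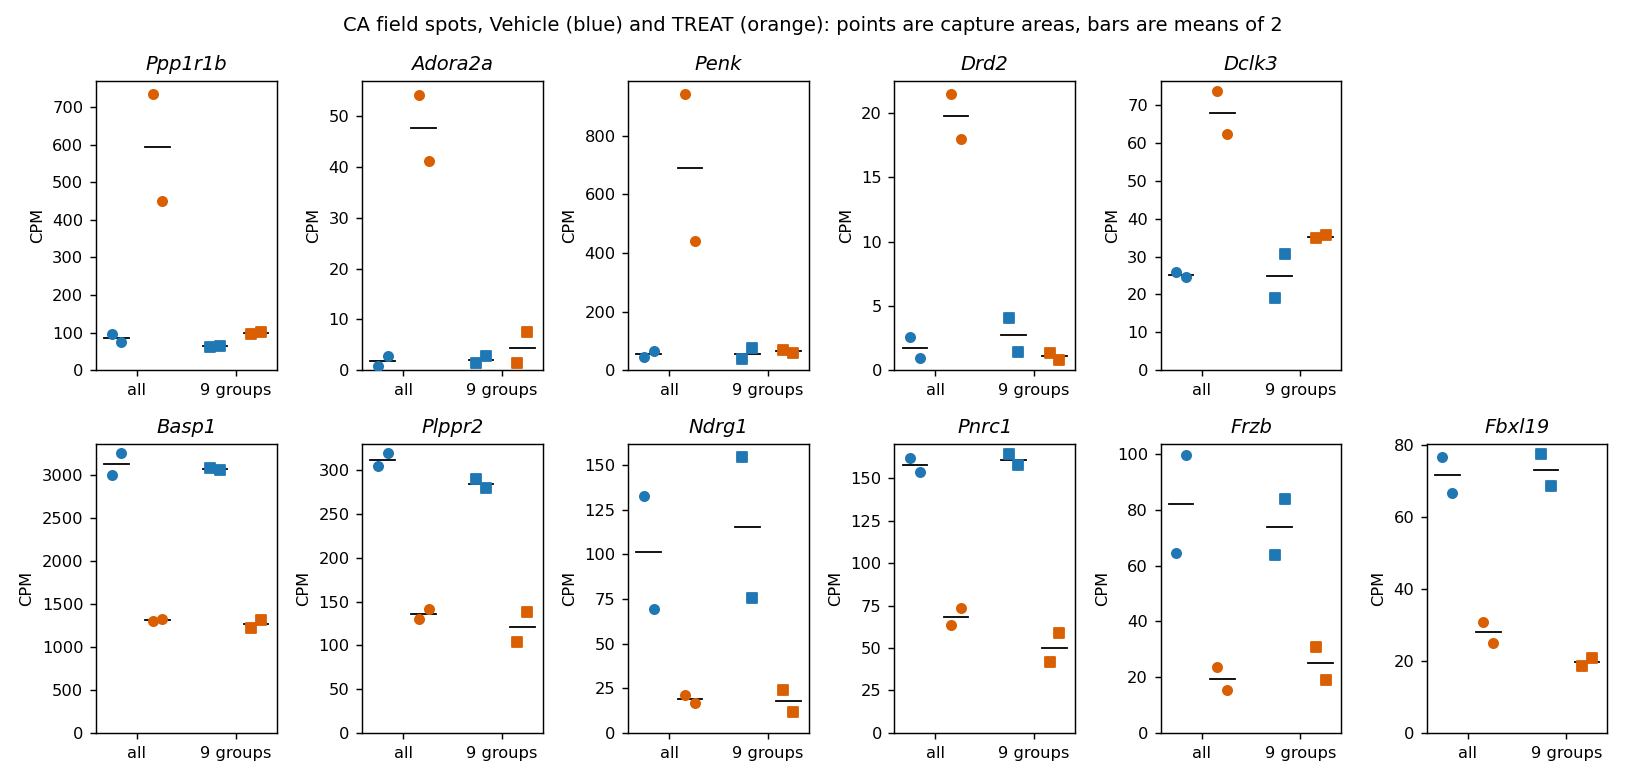
Level in CPM of 11 genes of the TREAT comparison in all CA field spots (circles) and in the 9 hippocampal groups (squares), Vehicle in blue and TREAT in orange, 1 point per capture area with the mean of 2 as a bar. Ppp1r1b, Adora2a, Penk and Drd2 are higher in both TREAT areas over all CA spots, while in the 9 groups Adora2a and Penk overlap and Drd2 is at most 4.071 CPM. Basp1, Plppr2, Ndrg1, Pnrc1, Frzb and Fbxl19 are lower in TREAT in both sets.

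Of the genes with the smallest p in the lower direction, none passed the threshold. Basp1, a membrane protein of growth cones and terminals, measured 3002 and 3267 CPM in Vehicle and 1307 and 1333 CPM in TREAT (log2 -1.32, edgeR adjusted p = 0.1334). Its values in the hippocampal groups were nearly the same, 3090, 3058, 1221 and 1314 CPM. In both sets the 2 Vehicle areas lay above the 2 TREAT areas.

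Plppr2, a phospholipid phosphatase-related membrane protein, had 305, 319.6, 130.4 and 141.4 CPM, and Ndrg1, a gene induced by hypoxia, had 132.7, 69.39, 21.45 and 16.72 CPM. Frzb, a secreted Wnt antagonist, had 64.62, 99.53, 23.55 and 15.43 CPM. The areas of these 3 genes did not overlap either, with edgeR adjusted p-values of 0.1334, 0.1334 and 0.1766.

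In the hippocampal groups the smallest p in the higher direction belonged to Ppp3r1, the regulatory subunit of calcineurin, and to the calcium pump gene Atp2b1. Ppp3r1 measured 73.27, 86.6, 212.3 and 242.3 CPM, a log2 difference of 1.47 ± 0.23 (SE; edgeR adjusted p = 0.09345), and Atp2b1 measured 99.06, 97.78, 255.5 and 260.5 CPM (log2 1.35 ± 0.22, edgeR adjusted p = 0.09345). Neither passed the threshold.

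Synaptic and immune lists had no gene past the threshold in all CA spots. Of the 10 AMPA receptor genes 10 lay above 0 with a median log2 difference of 0.12, and of the 17 presynaptic genes 13 lay below 0 with a median of -0.52, against a median of 0.0023 over all genes. Within the hippocampal groups, 8 AMPA receptor genes lay above 0 (median 0.26) and 10 presynaptic genes below 0 (median -0.22). The presynaptic sums overlapped between treatments there, at 14270, 16940, 13830 and 14700 CPM, whereas in the scattered spots they were 16470, 19110, 11070 and 8718 CPM. Of 13 antigen presentation genes tested, 13 lay below 0 with a median of -0.62. Their sums, 890.9 and 2264 CPM in Vehicle and 648.9 and 1522 CPM in TREAT, overlapped between the groups, and in the hippocampal groups 11 of the 13 lay below 0 (median -0.56). The corticosteroid list lay evenly, with 5 genes above and 5 below 0 in both sets.

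Cluster 0 alone, with 26, 37, 21 and 23 spots, gave more calls than the whole. It was formed from these same expression values and picked afterwards for its CA3 markers. The clustering also placed spots rich in genes of reactive glia, such as Gfap, in cluster 1. Its calls and p-values are therefore a description, for glial and immune genes above all. Of 8292 genes 142 passed (1.71%), 11 higher (0.133%) and 131 lower (1.58%) in TREAT (edgeR). The lower genes included 6 of 9 antigen presentation genes, 3 of 4 complement genes, 3 of 7 reactive astrocyte genes and 3 of 9 genes of disease-associated microglia. C1qa, a subunit of the complement initiator C1q, measured 232.2 and 266.9 CPM in Vehicle and 88.18 and 122.3 CPM in TREAT. Both Vehicle areas lay above both TREAT areas for these spots at all distances. Gfap, the intermediate filament of astrocytes, had 638.4, 579.9, 270.2 and 295 CPM, and Cd74, the invariant chain of MHC class II, had 74.62, 231.6, 28.45 and 52.17 CPM. Cd74 depended on Vehicle 2+3: its log2 difference was -2.14 (edgeR adjusted p = 0.006877), and without Vehicle 2+3 it was -0.93 (edgeR adjusted p = 0.4959). C1qa and Gfap kept their size without Vehicle 2+3, at log2 -1.16 and -1.19, but were not called (edgeR adjusted p = 0.2044 and 0.1133).

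Neuronal genes were also among the 142. Basp1 measured 3358, 3814, 1445 and 1696 CPM and Itm2b, a membrane protein of neurons and glia, 1513, 1767, 551.8 and 667.4 CPM. Among the 11 higher genes, Tafa1, a secreted neuronal protein, had 157.5, 224, 463.7 and 394 CPM and Ppp3r1 had 124.4, 121.2, 243.2 and 242.9 CPM.

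Depth and position moved with the groups in cluster 0. Its spots had a median of 8284, 16530, 31358 and 23310 UMIs, and lay a median of 9.5, 9, 14 and 14 steps from the nearest proliferating spot, so the Vehicle spots were shallower in median and nearer. The part of depth was not tested. Restricted to the 10, 17, 18 and 17 spots over 10 steps away, 0 of 6639 genes were higher and 12 lower. The glial and immune genes named above were not among the 12. Gfap measured 192.7, 196.3, 182.7 and 217.1 CPM in those spots (log2 -0.0027, edgeR adjusted p = 0.9996). C1qa measured 73.41, 123.5, 76.94 and 91.65 CPM (log2 -0.39, edgeR adjusted p = 0.6446), with the treatments overlapping. Cd74 overlapped as well, at 9.176, 126.7, 11.22 and 26.53 CPM, and did not pass the filter on low counts. Itm2b (log2 -1.49), Plppr2 (-1.98), Frzb (-2.11) and Basp1 (-1.16) were still called there, with edgeR adjusted p-values of 0.006228, 0.002319, 0.006847 and 0.03637. Over all cluster 0 spots, at any distance, DESeq2 called 2 genes higher and 23 lower. The counts for all cluster 0 spots also moved when 1 area was left out.

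The TREAT effect in CA spots was next set against that in all other spots of the same areas, with the area as a block. Of 19909 genes the effect differed for 1054 (5.29%; edgeR interaction test). It was more positive in CA spots for 578 (2.9%) and more negative for 476 (2.39%). The median log2 difference over all 19909 genes was 0.2854, so the comparison was not centred on 0. The test and the directions were taken at 0, and this offset was not removed from any count. Pmch, the precursor of melanin-concentrating hormone, measured 57.73, 10.04, 4.626 and 1.286 CPM in CA spots and 19.38, 41.1, 658.7 and 19.75 CPM elsewhere. TREAT 1+4 alone was high outside the CA spots, and Vehicle 1+4 alone was high inside them. Ndrg1, whose CA values are given above, measured 43.41, 30.87, 90.69 and 37.58 CPM elsewhere, a difference of effects of -2.86 ± 0.33 (SE; edgeR adjusted p = 5.63e-06). Ndrg1 is a leading gene of cluster 2, at 178.6 CPM there against 32.11 CPM in the other CA spots, and cluster 2 has no spot in TREAT. In cluster 0, Ndrg1 measured 29.02, 30.68, 19.91 and 7.196 CPM.

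Other genes with a more negative effect were Fxyd6 (log2 difference -2.50), Kcnc4 (-2.32), Grp (-3.63) and Kcnk9 (-2.11). Grp reached 176.6 CPM in the CA spots of Vehicle 1+4 and 17.35, 13.46 and 6.429 CPM in those of the other areas, so 1 area carried its level. Fxyd6 and Kcnc4 were likewise highest in Vehicle 1+4, at 245.6 and 152.5 CPM. Grp and Fxyd6 lead cluster 2 too, which held 68 of its 88 spots in Vehicle 1+4.

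In the other direction, Hist4h4, a histone gene, measured 56, 42, 29.44 and 36 CPM in CA spots and 816.5, 764.7, 105.5 and 202.7 CPM elsewhere, and the immediate early gene Ier2 measured 9.478, 17.35, 13.04 and 19.93 CPM in CA spots and 169, 194, 34.74 and 68.96 CPM elsewhere. For both genes the difference lay in the other spots, where Vehicle was high. Nt5e, the ecto-nucleotidase CD73, and Kirrel, an adhesion molecule, were below 14 CPM in CA spots. Of the 10 proliferation genes 4 had a more positive effect in CA spots (Cdk1, Top2a, Rrm2 and Ccnb1), and of the 17 presynaptic genes 7 had a more negative one.

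The share of proliferating spots, those at or above the 75th percentile of the proliferation genes, was 32.33% and 41.54% of all spots in Vehicle and 7.554% and 18.77% in TREAT. Its part in this comparison was not tested. The count of 1054 was 907 without Vehicle 1+4, 272 without Vehicle 2+3, 116 without TREAT 1+4 and 1975 without TREAT 2+3. With the hippocampal groups in place of all CA spots, the effect differed for 926 of 19894 genes (4.65%; edgeR interaction test). Of these, 417 were more positive (2.1%) and 509 more negative (2.56%), with a median of 0.2757 over all genes. Ndrg1, Fxyd6, Kcnc4, Grp, Kcnk9 and Ier2 were called there too. The hippocampal groups keep the connected spots of cluster 2, which has 0 spots in TREAT, so this does not remove the difference in make-up. Grp measured 263.2, 22.35, 13.01 and 3.308 CPM and Fxyd6 324.3, 64.25, 30.82 and 22.33 CPM in these groups, again highest in Vehicle 1+4. Pmch, at 1.357, 0, 4.794 and 0.8269 CPM in the hippocampal groups, and Hist4h4 were not (edgeR adjusted p = 0.7899 and 0.07562), and 7 proliferation and 5 presynaptic genes passed.

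Against upper-layer cortex spots, a second grey matter region of the same sections, the TREAT effect differed for 12 of 12059 genes (0.0995%; edgeR interaction test), 8 (0.0663%) more positive and 4 (0.0332%) more negative in CA spots. Gfap measured 723.8, 1129, 720.3 and 1603 CPM in CA spots and 895.6, 969.8, 264.2 and 546 CPM in cortex spots. CA spots of the 2 groups overlapped, while both TREAT cortex values lay below both Vehicle ones, and the effects differed by 1.48 ± 0.22 (SE; edgeR adjusted p = 0.01472). C1qa followed with 249, 451.1, 317.1 and 432 CPM in CA spots and 356.2, 647.4, 180.8 and 291.4 CPM in cortex (1.14 ± 0.19, edgeR adjusted p = 0.03122).

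Prkcd, a protein kinase C of thalamus and amygdala neurons, had the smallest p, with 21.54, 30.13, 93.77 and 44.36 CPM in CA spots and 100.6, 250, 31.91 and 15.81 CPM in cortex (4.15 ± 0.27, edgeR adjusted p = 5.36e-06). Both TREAT values lay above both Vehicle values in CA spots and below them in cortex. The Wfs1-rich groups gave 164 of the 223 Prkcd UMIs of the TREAT 1+4 CA spots, at 239.3 CPM. Prkcd in the hippocampal groups measured 9.499, 16.76, 36.3 and 51.27 CPM, and the effect still differed from cortex (4.57 ± 0.49, edgeR adjusted p = 0.005524). Wfs1 was among the 8 as well, but it is a gene of the rule and no result. Frzb led the 4 lower genes with 21.25, 18.42, 40.03 and 42.48 CPM in cortex, opposite in direction to its CA values (-3.04 ± 0.35, edgeR adjusted p = 0.001971). Grp (-4.22), Fosl2 (-2.34) and Cadps2 (-1.51) were the other 3. Without Vehicle 1+4, Vehicle 2+3 or TREAT 1+4 the count of 12 was 427, 203 or 41. With the hippocampal groups in place of all CA spots, 8 of 11747 genes differed from cortex (0.0681%), 3 more positive (0.0255%) and 5 more negative (0.0426%; edgeR interaction test). Frzb, Grp and Fosl2 were called there too. Grp and Fosl2 are leading genes of cluster 2, which these groups keep and which has 0 spots in TREAT. Fosl2 measured 146.1 CPM in cluster 2 and 24.22 CPM in the other CA spots. Gfap (log2 1.89, edgeR adjusted p = 0.07892), C1qa (1.43, edgeR adjusted p = 0.09882) and Cadps2 (-1.30, edgeR adjusted p = 0.1147) were not.

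Finally, CA field spots were compared by distance to the nearest proliferating spot, 1 step being a move to an adjacent spot. The median was 18 steps in Vehicle 1+4, 11 in Vehicle 2+3, 18 in TREAT 1+4 and 10 in TREAT 2+3. Spots 10 steps or fewer away numbered 45, 48, 10 and 67 in this order, and those over 10 steps away 115, 52, 112 and 59. Counts of near and far spots were summed within each area and tested with the area as a block, a comparison chosen after seeing the data. Of 8993 genes 261 (2.9%) were higher and 114 (1.27%) lower near proliferating tissue, 375 in all (4.17%; edgeR).

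Glial and immune genes rose near the proliferating spots. All 12 reactive astrocyte genes tested and all 4 complement genes passed as higher, with 11 of 12 antigen presentation genes, 10 of 11 interferon-stimulated genes, 8 of 9 genes of disease-associated microglia and 4 of 6 microglia markers. Of the astrocyte markers 2 of 8 passed, Slc1a3 and Aqp4. C1qa measured 538.7, 696.9, 859.2 and 652.9 CPM near and 152.7, 165.7, 259.2 and 239.5 CPM far, in Vehicle 1+4, Vehicle 2+3, TREAT 1+4 and TREAT 2+3. The near value was the higher one in 4 of 4 areas and the near and far values did not overlap, a log2 difference of 1.75 ± 0.13 (SE; edgeR adjusted p = 8.84e-08).

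Gfap had 1564, 1837, 1614 and 2475 CPM near and 444.3, 305.8, 625 and 842.4 CPM far (log2 1.81 ± 0.15, edgeR adjusted p = 2.36e-07). B2m, the light chain of MHC class I, had 1039, 1569, 885.4 and 1126 CPM near and 268.7, 489.3, 323 and 447.7 CPM far (log2 1.60 ± 0.12, edgeR adjusted p = 1.07e-07). Both genes separated near from far in every area. Vim (log2 1.84), H2-D1 (1.73), Cd74 (2.04), Ctss (1.60) and the interferon-induced Oasl2 (1.91) also passed.

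**Figure D5:**
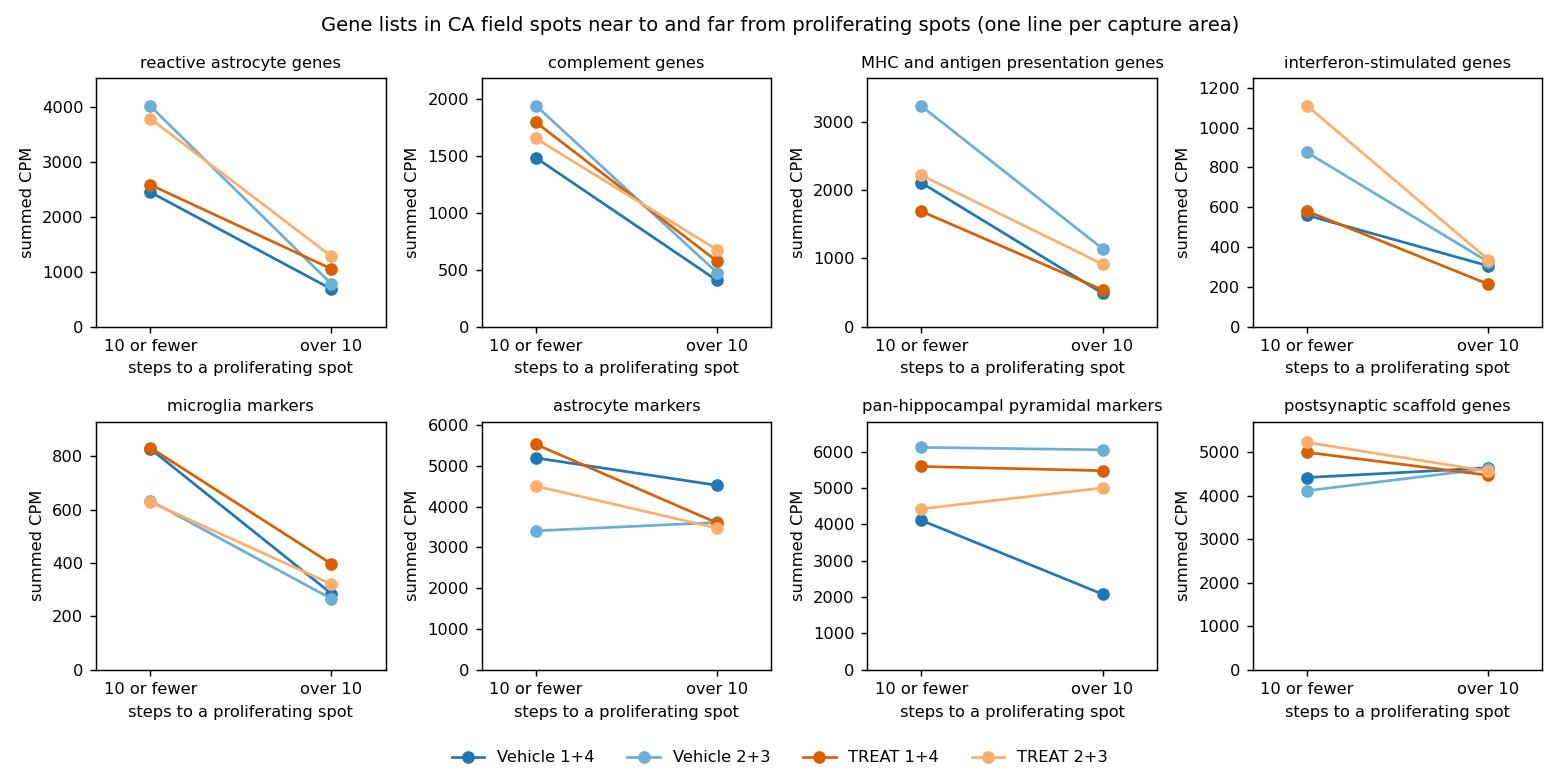
Summed level in CPM of 8 gene lists in CA field spots 10 steps or fewer and over 10 steps from a proliferating spot, 1 line per capture area. Reactive astrocyte, complement, antigen presentation, interferon and microglia lists are higher near proliferating spots in all 4 areas, with the reactive astrocyte list at 2452 to 4023 CPM near and 685.4 to 1284 CPM far.

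Several genes of neurons were among the lower ones. Nnat, a membrane protein of the neuronal endoplasmic reticulum, measured 452.4, 356.9, 344.6 and 187.7 CPM near and 1493, 728, 883.3 and 989.2 CPM far, lower near in every area (log2 -1.63 ± 0.16, edgeR adjusted p = 2.79e-06). Hap1, a trafficking protein (-1.55), Cpne7 (-1.41), Gap43, a growth cone protein (-0.89), and Vgf, a neuropeptide precursor (-1.20), also fell, as did the interneuron genes Gad2 (-1.21) and Sst (-1.53). Sst was higher near in TREAT 2+3, at 617.1 against 388.7 CPM. In the hippocampal groups alone Nnat (-1.27) and Cpne7 (-1.59) passed, with edgeR adjusted p-values of 0.03706 and 0.007205, while Hap1 (-0.54), Gap43 (-0.49), Vgf (-1.21), Gad2 (-0.56) and Sst (-0.87) did not, with 0.6287, 0.5483, 0.06769, 0.6016 and 0.6203. The Wfs1-rich groups, which lie 17 or more steps away, had 1014 CPM of Hap1, 1617 of Gap43, 811.2 of Gad2 and 2936 of Sst. Of 10 AMPA receptor genes, 0 passed. Their median log2 difference was -0.0121.

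Make-up moved with distance. Spots with Wfs1 at 50% or more of the rule's UMIs numbered 8, 2, 0 and 9 of the near spots and 26, 17, 61 and 28 of the far spots. Cluster 1, which was led by glial genes, was 13, 26, 2 and 36 of the near and 6, 0, 12 and 12 of the far spots. Cluster 2 was 1, 0, 0 and 0 of the near and 67, 20, 0 and 0 of the far spots. Cluster 4 was 1, 0, 0 and 0 of the near and 0, 14, 37 and 0 of the far spots. In Vehicle 1+4 the pan-hippocampal markers summed to 4109 CPM near and 2080 CPM far. Near and far spots thus held different mixtures of neurons, and the part of this in the neuronal genes was not tested. Macrophage markers summed to 13.81, 8.498, 30.53 and 12.42 CPM near and 8.037, 3.946, 7.446 and 8.424 CPM far, low but higher near in every area. T and NK cell markers summed to 17.27, 10.2, 8.723 and 19.33 CPM near and 8.037, 15.78, 4.654 and 16.85 CPM far. The proliferation genes summed to 55.25, 49.29, 17.45 and 118.7 CPM near and 19.52, 49.33, 28.39 and 32.49 CPM far. In the hippocampal groups alone, 105 genes were higher (1.31%) and 9 lower (0.112%) of 8002 (1.42% in all). All 4 complement genes were among the higher ones. In Vehicle 1+4 the near spots of these groups were the 34 of the right piece and the far spots the 62 of the left piece. There distance and tissue piece cannot be told apart, and the area block does not remove a difference between pieces. In cluster 0 alone, which was formed from expression, 14 were higher (0.291%) and 2 lower (0.0416%) of 4813 (0.332% in all). Gfap, B2m, C1qa and Cd74 were among the higher ones.

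The genes higher near proliferating spots and those lower in TREAT within cluster 0 shared 22 genes, 8.43% of the 261 and 16.8% of the 131. Over all genes tested, 2.9% of 8993 were higher near and 1.58% of 8292 were lower in TREAT within cluster 0. The 2 comparisons share spots, so the overlap is a description. Without Vehicle 2+3 the count of 375 was 214 and without TREAT 2+3 it was 209.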

How the data were processed

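The authors deposited raw UMI counts per gene and spot, with no normalization, for 4 capture areas; Space Ranger 2.1.1, R 4.4.1 and Seurat on build mm10 are named per the submitters' processing notes. The method that marked spots as tissue is not stated in the sources used here. Of 32589 features, 304 marked as deprecated (0.8862% of UMIs) were left out, and 20457 of the others had counts, 20046 of which matched the gene table of GRCm38.p6 by symbol. Spots over tissue with 2000 or more UMIs were kept, 12696 of 13046, holding 33999917 to 56150197 UMIs per area. The areas share 1825 barcodes over tissue, which are array positions and not cells.

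The members and gene lists were chosen with earlier results of these data known. Upper-layer cortex spots (733) had a score of Lamp5, Cux2, Rasgrf2 and Rorb at or above its 94th percentile, and dentate gyrus spots (253) one of Prox1, C1ql2, Dsp and Stxbp6 at or above its 98th, leaving out CA spots. Counts were summed per area and tested with edgeR 4.0.16 (R 4.3.3; quasi-likelihood F-test, TMM, filterByExpr, Benjamini-Hochberg, threshold 0.05), with the area as a block within areas. Log2 values carry standard errors, and levels are CPM of the sums. CA spots were clustered with scanpy 1.11.5 and leidenalg 0.10.2 (2000 variable genes, 20 components, 15 neighbours, resolution 0.5, Python 3.11.15). Doublets were not called, because spots hold several cells. Named genes were the 12 smallest p per direction past the threshold (6 for interactions) with groups that did not overlap and a mean of 10 CPM, or the 6 smallest unadjusted p where fewer passed, and the 20 largest ratios among genes with 50 CPM. For near against far spots, the condition was the same direction in all 4 areas in place of no overlap. Some named genes are given in figures or summaries only, and others go unreported. Other genes were named from the lists, or after their values were seen. Alternatives were DESeq2 1.42.0, limma-trend (limma 3.58.1), other scalings, filters and thresholds, and leaving out each area. The fits were tested on simulated data. P-values measure the spread between areas, which may be technical.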

Additional observations from a re-analysis of the deposited data

Results flagged for a closer look

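The effect of TREAT differed between CA field spots and all other spots for 1054 genes, and between CA field spots and upper-layer cortex spots for 12 genes, by a test of the difference itself (edgeR interaction, adjusted p under 0.05). In the first comparison CA spots and other spots of an area come from the same sections, and the other spots include the proliferating tissue. In the second, Prkcd had log2 differences of TREAT over Vehicle of 1.36 in CA spots and -2.81 in cortex spots. Of the 223 Prkcd UMIs of the TREAT 1+4 CA spots 164 came from the Wfs1-rich groups; in the hippocampal groups its values were 9.499 and 16.76 CPM in Vehicle and 36.3 and 51.27 CPM in TREAT.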

How the results depend on the processing

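The 3 genes called between TREAT and Vehicle were 53 by DESeq2, 433 with no filter on low counts, 0 at the 98th and 55 at the 94th percentile of the score, and 0 in spots with a UMI of Fibcd1 or Spink8. With limma-trend, library totals, a minimum of 10 CPM, 5000 UMIs or without spots at or next to proliferating ones, 3 or 4 genes passed. Leaving out each area gave 3 to 22. With the label numbers as a replicate block 147 passed; the labels do not say that equal numbers pair areas, there are 2 pairs, and the deviations of Vehicle 1+4 and TREAT 1+4 from their group means correlated at 0.235 over 10134 genes. Added after seeing the data, connected groups, the hippocampal groups and spots with Wfs1 under 50% of the rule's UMIs each gave 0, and cluster 0 alone gave 142, with the sign of Dclk3 turned (log2 -0.01226). The interaction with all other spots (1054) gave 1905 with library totals and 116 to 1975 when leaving out each area. The interaction with cortex (12) gave 16 to 427 when leaving out each area. The comparison by distance (375), itself added, gave 170 by DESeq2, 114 in the hippocampal groups, 16 in cluster 0, 607 and 565 with the split at 8 and 15 steps, and 209 to 303 when leaving out each area. The share difference of -0.237 percentage points was 0.045, 0.3405 and 0.3335 at the 98th and 94th percentile and at 5000 UMIs. The causes were not tested. Depth limits genes with few UMIs, such as Adora2a in Vehicle with 1 and 3.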
